A study of Homo sapiens with 22 samples.

Results

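Antisense and divergent long noncoding RNAs (lncRNAs) were described in 11 established human glioblastoma cell lines, together with the genes they are named after. A gene was taken as a member when its symbol ends in -AS and a number, the name form for a transcript antisense to another gene, or in -DT, the form for a divergent transcript. The gene whose symbol stands before the hyphen was taken as the partner where the same table lists it. The study measured poly(A) RNA by strand-specific RNA-seq in 22 libraries, 2 per line. The deposited values come as an 8-line table with 2221 genes (SNU-1105, KALS-1, T98G, U-87MG, U-138MG, LN-18, KNS-42 and LN-229) and a 3-line table with 5383 genes (SNU-466, A-172 and AM-38). Members numbered 111 of 2221 genes in the 8-line table (86 named -AS, 25 named -DT) and 242 of 5383 in the 3-line table (184 and 58). Both tables list 29 of them, so 324 different members were measured. A listed partner existed for 37 members of the 8-line table and 125 of the 3-line table.

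Per the labels, A-172, KNS-42, LN-18 and LN-229 were grown in DMEM, T98G, U-87MG and U-138MG in EMEM, and KALS-1, SNU-466 and SNU-1105 in RPMI 1640, all with 10% serum. AM-38 was grown in EMEM with 20% serum. Medium and serum are fixed by line, so they and the line cannot be told apart. The labels do not say if both libraries of a line stem from different cultures, and p-values here cover only the spread between libraries, which may be technical.

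As background, antisense lncRNAs are transcribed from the strand opposite to a gene and may overlap its exons, its introns or only its promoter. Divergent transcripts start near the start of a gene and run away from it, so that a single stretch of DNA between the starts serves as promoter on both strands. Many such RNAs lie beside genes for developmental transcription factors. Some, such as the RNA at the DLX6 locus, are known to affect transcription of their neighbours, while for many others no function is known.

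The 22 libraries held 17 to 21.2 M counted reads, and 3 reads, the most that a count of 0 allows, corresponded to 0.141 to 0.177 CPM. CPM are counts per M (mega) reads of that total, and this floor covers counting error only. How the listed genes were chosen is not stated, but for most of them in the 8-line table the mean of KALS-1, LN-18 and T98G differs from that of the other 5 lines, and in the 3-line table SNU-466 lies outside the range of the other lines for most. Counts below therefore refer to listed genes. The T98G libraries differed from each other in some genes, for example 128 and 43.2 CPM for ODC1. Of the markers of neural and glial cells, GFAP stood at 38.3 CPM in SNU-466 but 0.314 CPM in AM-38, with A-172 at 1.36 CPM. S100B and NES were likewise highest in SNU-466 within the 3-line table, at means of 1731 and 469 CPM. EGFR went the other way: AM-38 reached 462 CPM, A-172 followed at 348 CPM and SNU-466 had only 0.106 CPM. SOX2, listed in the 8-line table, ran from 0.0265 CPM in T98G to 800 CPM in KNS-42. Among further markers, VIM was lowest in LN-18, at 1241 CPM, and highest in U-87MG, at 4946 CPM. KRT18, an epithelial keratin, ranged from 0.216 CPM in SNU-466 to 983 CPM in A-172. The part of these markers in the results was not tested. A level is a mean over the cells of a culture, so fewer expressing cells and less RNA per cell cannot be told apart.

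The stretch between the starts can be read where lncRNA and partner point apart. RefSeq promoter windows (GRCh38.p14) were found for 75 of 111 members and 164 of 242, and 25 pairs had RefSeq starts pointing apart with 26 to 223 bases between them. The stretches below are those that lie outside both genes in RefSeq and in GENCODE 29 and whose lncRNA reached 1 CPM in some line. Each is on the strand of the lncRNA, 5′ to 3′, so that the lncRNA starts just after its last base and the partner runs off to the left on the other strand. Capitals mark 4 promoter motifs searched on both strands: the GC box (GGGCGG or CCGCCC), the CCAAT box (CCAAT or ATTGG), the TATA box (TATAAA or TTTATA) and the ETS core (CGGAAG or CTTCCG), which can share bases.
SOX21-AS1, chr13:94712546-94712715, plus strand: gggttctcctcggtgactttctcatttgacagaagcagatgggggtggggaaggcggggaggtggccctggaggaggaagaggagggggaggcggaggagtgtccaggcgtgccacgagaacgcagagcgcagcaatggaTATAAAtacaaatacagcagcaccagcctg
CD2BP2-DT, chr16:30355362-30355433, plus strand: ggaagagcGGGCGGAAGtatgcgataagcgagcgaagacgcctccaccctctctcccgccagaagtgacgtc
ZNF582-DT, chr19:56393546-56393655, plus strand: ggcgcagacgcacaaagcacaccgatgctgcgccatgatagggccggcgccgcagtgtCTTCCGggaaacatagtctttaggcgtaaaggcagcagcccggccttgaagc
TARS1-DT, chr5:33440635-33440695, minus strand: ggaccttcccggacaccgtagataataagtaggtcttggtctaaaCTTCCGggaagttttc

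The SOX21-AS1 stretch of 170 bases holds a TATA box, as do 7.44% of all 35116 RefSeq windows over their last 170 bases before the start, and has 59.4% G and C. The CD2BP2-DT stretch of 72 bases holds a GC box and an ETS core that share bases, present in 26.2% and 8.07% of windows cut to that length. ZNF582-DT (110 bases) and TARS1-DT (61 bases) each hold an ETS core, found in 10.5% and 7.14% of windows of these lengths. A match is a description of letters and not a site. Over whole windows of 300 bases, members named -DT held a median of 31 CG dinucleotides in 59 windows, members named -AS 17 in 208 windows, and all RefSeq genes 14. A GC box stood in 76.3% of the -DT windows, 51.9% of the -AS windows and 45% of all windows, whereas a TATA box stood in 5.08%, 7.21% and 11.5%. Many members share a window with a partner start, so these windows are not independent of those of the partners.

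Among the 4 pairs printed, lncRNA and partner followed each other to different degrees. SOX21-AS1 (GENCODE 29, chr13:94712716-94716246, plus strand) stood at 64 and 68.9 CPM in the 2 libraries of KNS-42, with 2.39 and 4.1 CPM in SNU-1105 and at most 0.102 CPM in each library of the other 6 lines. SOX21, a transcription factor of neural progenitors, stood at 293 and 306 CPM in KNS-42, with 5.69 and 8.56 CPM in SNU-1105 and at most 0.0509 CPM elsewhere in the 8-line table. Both genes were thus seen above the floor in the same pair of lines. In KNS-42 the mean of SOX21-AS1 was 136-fold and that of SOX21 291-fold the mean of the other 14 libraries (edgeR adjusted p 5.02e-15 and 1.15e-16).

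CD2BP2-DT and CD2BP2, a protein of the splicing machinery, were measured in every library. CD2BP2-DT stood at 8.57 and 7.89 CPM in LN-18 against 0.508 to 3.56 CPM in the other libraries. CD2BP2 stood at 391 and 405 CPM in LN-18 against 71 to 111 CPM. LN-18 lay above every other library for both, by 2.26 ± 0.24 (SE) and 2.11 ± 0.11 on the log2 scale against the mean of the other lines (edgeR adjusted p 1.17e-07 and 4.99e-12). Among the other 7 lines the partner varied little, and r fell from 0.93 to 0.66 without LN-18.

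ZNF582-DT, beside a zinc finger gene, stood at 2.24 and 2.24 CPM in SNU-466, 0.666 and 1.19 CPM in A-172 and only 0.141 and 0.151 CPM in AM-38. ZNF582 stood at 2.65 and 2.39, 0.359 and 0.347, and 0.189 and 0.251 CPM in these lines, in the same order. Both were higher in SNU-466 (log2 fold change 2.57 ± 0.35 and 3.15 ± 0.34, edgeR adjusted p 2.27e-10 and 6.29e-14). TARS1-DT, beside the gene for threonyl-tRNA synthetase, stood at 4.66 and 3.77 CPM in A-172, with 3.91 and 4.22 CPM in AM-38 and 1.77 and 1.53 CPM in SNU-466. TARS1 stood at 294 and 300, 493 and 495, and 85.7 and 84.6 CPM. Both were lower in SNU-466 (log2 fold change -1.33 ± 0.22 and -2.17 ± 0.05, edgeR adjusted p 8.43e-08 and 9.61e-60). The libraries of TARS1-DT overlapped between A-172 and AM-38, whereas those of TARS1 did not.

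The members were low in most lines. The highest line mean per member had a median of 3.18 CPM in the 8-line table and 3.25 CPM in the 3-line table, and 93 of 111 and 193 of 242 members reached 1 CPM in some line. Of all listed genes, 1942 of 2221 and 4746 of 5383 reached 1 CPM, with medians of the highest line mean of 12.5 and 14.7 CPM. Listed partners reached a median of 95.5 and 53.9 CPM, above that of all listed genes. On the FPKM scale, which divides reads by gene length and allows levels of different genes to be compared, the median of the highest line mean was 1.16 FPKM for members and 11.4 FPKM for partners in the 8-line table. The corresponding medians were 1.14 and 10.1 FPKM in the 3-line table, and intergenic lncRNAs named LINC reached 0.722 and 0.715 FPKM. All listed genes had medians of 3.01 FPKM in the 8-line and 3.41 FPKM in the 3-line table. The partner had the higher mean FPKM in 36 of 37 pairs and in 104 of 125 pairs. The exception in the 8-line table was EFCAB13-DT, with a highest line mean of 4.46 FPKM against 0.845 FPKM for EFCAB13. JAKMIP2-AS1 also had a higher highest line mean than JAKMIP2, at 6.82 and 3.56 FPKM, and DLX6-AS1 stood at 4.98 FPKM beside 10.2 FPKM for DLX6. In the 3-line table the lncRNA was the higher of the pair in every line for 8 pairs, among them DLGAP1-AS2 and CCDC144NL-AS1.

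Among the 104 members of the 8-line table that passed the filter on low counts, 103 differed among the lines (edgeR, adjusted p under 0.05 and a log2 range of line means of 1 or more), as did 99.7% of all genes tested there. In the 3-line table it was 210 of 215, beside 98.1% of all genes tested. These shares lie near the background and describe the choice of listed genes as much as the members.

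Each line was then compared with the others, whose log-scale levels were averaged with the same weight, with a call at an adjusted p under 0.05 and a log2 fold change of at least 1. Of the 104 members, 35 were higher in U-138MG (all genes tested, 33.5%), 34 in U-87MG (33.1%), 33 in KNS-42 (33%) and 32 in LN-18 (31%). Another 25 were higher in LN-229 (27.9%), 23 in SNU-1105 (25.8%), 18 in T98G (20.7%) and 16 in KALS-1 (24.1%). Summed over lines this gave 216 higher calls (28.6% of all tests) and 111 lower calls (17.6%). Lower calls by edgeR are incomplete, since the mean of the other lines is not finite where another line has 0 reads. By limma, which stays finite, lower calls numbered 247 (32% of all tests). T98G had the most lower calls by both tools, 26 by edgeR (30.1% of all genes tested) and 51 by limma (47.6%). By edgeR 7 members were lower in LN-229 (12%), 13 in U-138MG (16%), 11 in SNU-1105 (8.78%) and 18 in LN-18 (24.9%). KNS-42 had 10 (13.7%), U-87MG 13 (16.2%) and KALS-1 13 (19.5%). By limma these lines had 20 (26.1%), 32 (30.2%) and 31 (36.3%), and LN-229 had 20 (26.4%), U-138MG 28 (29.9%), SNU-1105 22 (20.8%) and LN-18 43 (38.7%). Because the mean is on the log scale, a call of higher can include a line that lies under the arithmetic mean of the others.

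**Figure D1:**
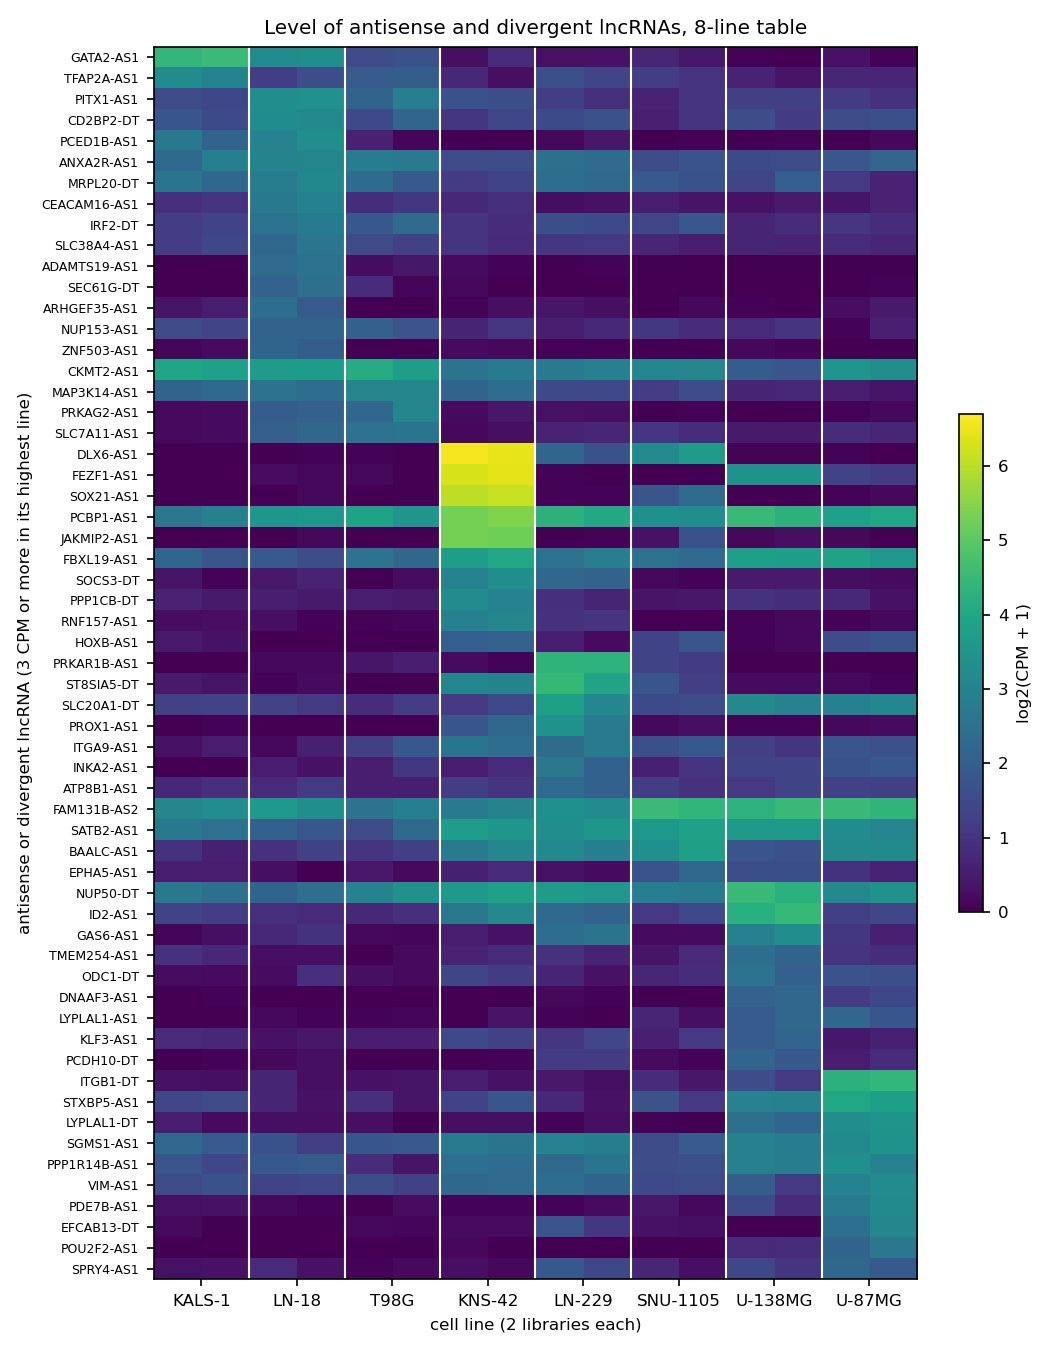
Level of 59 antisense and divergent lncRNAs of the 8-line table that reached 3 CPM in their highest line, as log2(CPM + 1) in colour, with 1 row per lncRNA and 2 library columns per line, ordered by the highest line. Blocks of high colour fall in single lines, the brightest being DLX6-AS1, FEZF1-AS1 and SOX21-AS1 in KNS-42, while CKMT2-AS1 and PCBP1-AS1 are seen in every line.

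Each line had members called higher by edgeR whose 2 libraries lay above every other library of the table. They numbered from 20 in LN-18 and 15 in KNS-42 to 3 in SNU-1105. The share of all genes meeting this rule was not counted. These lines held the highest mean of 21.6%, 17.1% and 6.31% of the 111 members, beside 16.7%, 16.7% and 4.77% of all listed genes. KNS-42 held the most abundant of these members. DLX6-AS1 stood at 97.3 and 86.5 CPM there, FEZF1-AS1 at 77.5 and 84.9 CPM and SOX21-AS1 at the levels above. The next line for FEZF1-AS1 was U-138MG at 9.83 CPM in both libraries, and U-87MG followed at 1.61 and 1.3 CPM. FEZF1, a transcription factor of forebrain development, is not among the listed genes, so FEZF1-AS1 has no partner value here. The rise in KNS-42 was 49.5-fold over the mean of the other libraries for FEZF1-AS1 and 48.6-fold for DLX6-AS1 (edgeR adjusted p 4.95e-16 and 1.95e-16).

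In KALS-1 the leading member was GATA2-AS1 at 21.7 ± 1.41 CPM (SD, n = 2), followed by TFAP2A-AS1 at 7.89 ± 0.979 CPM. Their partners, the transcription factors GATA2 and TFAP2A, were highest in KALS-1 as well. In LN-18 PITX1-AS1 stood at 9.25 ± 0.448 CPM, CD2BP2-DT at the level above and PCED1B-AS1 at 7.82 ± 1.31 CPM. T98G was led by MAP3K14-AS1 (7.34 ± 0.0317 CPM), PRKAG2-AS1 (5.54 ± 2.74 CPM) and SLC7A11-AS1 (4.87 ± 0.295 CPM). MAP3K14, a kinase of noncanonical NF-kappaB signalling, and SLC7A11, a cystine transporter, were also highest in T98G. These 8 members were picked from those called higher in their line, so a pass was fixed by the choice. The largest edgeR adjusted p was 1.17e-07, for CD2BP2-DT.

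LN-229 was led by PRKAR1B-AS1 at 19.4 ± 0.259 CPM (SD, n = 2), against 1.44 CPM in SNU-1105 as the next line and 0 reads in KALS-1, U-138MG and U-87MG. ST8SIA5-DT (17.6 ± 4.93 CPM) and PROX1-AS1 (7.68 ± 2.74 CPM) followed. SNU-1105 was led by BAALC-AS1 (11.2 ± 2.66 CPM), EPHA5-AS1 (3.02 ± 0.966 CPM) and ZNF236-DT (2.14 ± 0.298 CPM), and U-138MG by NUP50-DT (20.4 ± 2.84 CPM), ID2-AS1 (19.8 ± 2.48 CPM) and GAS6-AS1 (7.66 ± 1.65 CPM). U-87MG was led by ITGB1-DT at 19.7 ± 1.11 CPM, 37.0-fold the mean of the other libraries, with STXBP5-AS1 at 13.9 ± 1.77 CPM and LYPLAL1-DT at 9.36 ± 0.88 CPM. The 12 members were likewise picked from those called higher in their line. The smallest change among them was in ZNF236-DT (log2 fold change 1.28 ± 0.28, edgeR adjusted p 0.000949).

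The partner rose and fell with the lncRNA in most pairs of the 8-line table. Of 37 pairs, 33 had an lncRNA that reached 1 CPM in some line, with 32 different partners. Over the 8 line means of log2(CPM + 1), Pearson r ranged from 0.30 to 1.00 with a median of 0.89, and was at least 0.5 in 31 pairs, at least 0.9 in 14 and negative in none. Of all combinations of these lncRNAs with any other listed gene, 23.3% had an r of at least 0.5 and 54% a negative r. Ordered by r among 2220 listed genes, the partner was first for 1 lncRNA, among the top 10 for 6 and among the top 100 for 24, with a median rank of 64. The line with the highest level was the same for both in 27 pairs. The share of all combinations with the same highest line was not counted here. Many values of r rest on few lines. Without the 2 lines farthest from the median of each lncRNA, the median r was 0.71 and 22 pairs had an r of at least 0.5. The points share libraries, and the genes appear chosen for a difference between sets of these lines, so r is given as a description over n = 8 lines. With the means of the 2 sides of that difference subtracted, a step added after the data were seen, 25 of 33 pairs (75.8%) had an r of at least 0.5, against 14.8% of all combinations, and 4 had a negative r.

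**Figure D2:**
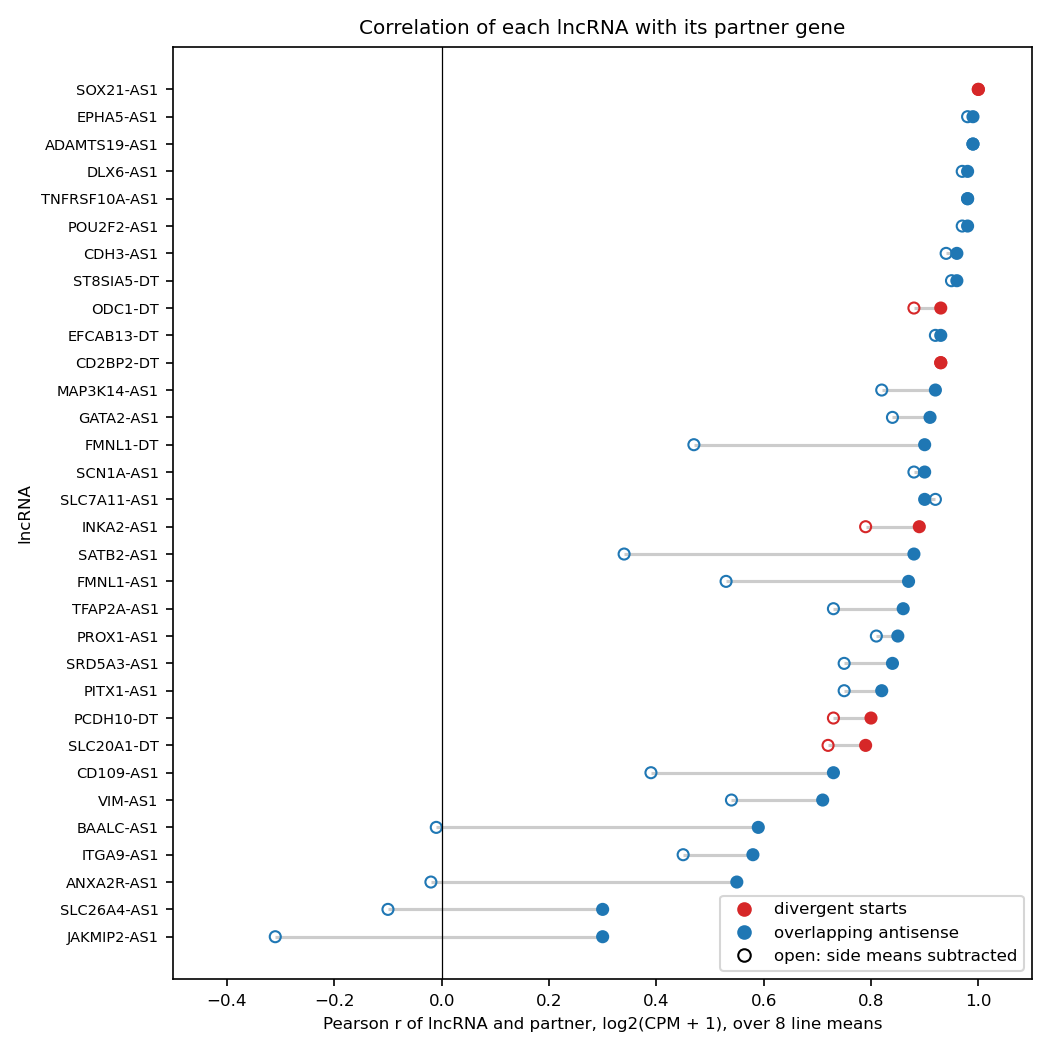
Pearson r of each lncRNA with its partner over the 8 line means of log2(CPM + 1), for 32 of the 33 pairs whose lncRNA reached 1 CPM; filled points are r as measured and open points r after the means of KALS-1, LN-18 and T98G and of the other 5 lines were subtracted, with divergent pairs in red and overlapping pairs in blue. Filled points run from 0.30 to 1.00, and 4 open points lie below 0.

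The pairs were also split by their arrangement in the genome. In GENCODE 29, 6 of the 33 pairs were divergent, meaning opposite strands and starts pointing apart within 1000 bases, with a median r of 0.91 and a lowest of 0.79. The other 27 were overlapping antisense, with a median of 0.88 and a lowest of 0.30. In this annotation exons of lncRNA and partner overlapped in 22 pairs (median r 0.88) and not in 11 (median 0.91, lowest 0.59). The deposited gene length equalled the exon length in GENCODE 29 for 593 of 2153 genes of the 8-line table and 1414 of 5214 of the 3-line table. It lay within 10% for 77.7% and 78%, so the exons that were counted may differ from these. Whether the authors' counting used strand is not stated, so reads over exons shared by lncRNA and partner may not be separable, and the part of such reads in the results was not tested. In VIM-AS1, which shares 641 exon bases with VIM, the lncRNA held 0.524 to 1.54 reads per 1000 reads of VIM across the 8 lines. The reads counted for VIM-AS1 numbered 63 to 309 per line. The 11 pairs without exon overlap had an r of at least 0.5 in every case, but many of these values rest on few lines. Without the 2 farthest lines, r was -0.42 for POU2F2-AS1, 0.17 for CD2BP2-DT, 0.21 for GATA2-AS1 and 0.23 for PCDH10-DT. It was 0.38 for PITX1-AS1, 0.42 for SOX21-AS1, 0.56 for BAALC-AS1 and 0.72 for SLC20A1-DT. ODC1-DT, INKA2-AS1 and DLX6-AS1 had 0.85, 0.88 and 1.00.

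SOX21-AS1 had the highest r, 1.00, but rests on KNS-42 and SNU-1105: without these, the lines farthest from the median, r was 0.42 over levels of a few reads. EPHA5-AS1 and EPHA5, a receptor tyrosine kinase of axon guidance, spread over more lines, with an r of 0.99 and of 0.98 without the 2 farthest lines. EPHA5-AS1 stood at 2.34 and 3.7 CPM in SNU-1105 and 2.07 and 2.05 CPM in U-138MG, and between 0 and 0.976 CPM in the other libraries. EPHA5 stood at 155 and 176 CPM and 122 and 111 CPM in these lines, and between 1.07 and 18.2 CPM elsewhere. The libraries of both lines lay above all others for both genes.

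DLX6-AS1 (GENCODE 29, chr7:96955141-97014065, minus strand) and DLX6, a homeobox transcription factor of forebrain interneurons, shared 3 lines. DLX6-AS1 stood at 97.3 and 86.5 CPM in KNS-42, with 8.38 and 12.1 CPM in SNU-1105 and 3.52 and 2.23 CPM in LN-229, and at or below 0.053 CPM elsewhere. DLX6 stood at 35.4 and 34.7, 6.55 and 7.46, and 6 and 5.69 CPM in these lines, and at or below 0.2 CPM elsewhere. In GENCODE 29 the exons of the pair do not overlap. Both genes were called higher in all 3 lines by edgeR, and r was 0.98, and 0.96 without KNS-42.

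ADAMTS19-AS1 and ADAMTS19, a secreted metalloprotease, were led by LN-18, at 4.07 and 4.63 CPM and 43.3 and 39.2 CPM. T98G followed with 0.159 and 0.351 CPM for the lncRNA and 1.75 and 1.46 CPM for the partner, and the pair had an r of 0.99. TNFRSF10A-AS1 stood at 2.51 and 2.34 CPM in LN-18, while every other library had 0.15 CPM or less. TNFRSF10A, a death receptor for TRAIL, stood at 22 and 22.7 CPM in LN-18, while every other library had 1.05 CPM or less. That pair had an r of 0.98, which fell to 0.67 without LN-18.

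POU2F2-AS1 stood at 3.42 and 5.34 CPM in U-87MG, 0.756 and 0.798 CPM in U-138MG and at most 0.103 CPM elsewhere. POU2F2, a transcription factor best known from B cells, stood at 206 and 293 CPM, 16.2 and 17.6 CPM and at most 2.4 CPM. Their r of 0.98 turned to -0.42 without the 2 farthest lines, where the lncRNA was at or near 0 reads. CDH3-AS1 stood at 1.28 and 0.919 CPM in KALS-1 and 0.313 and 0.254 CPM in LN-18, with no read in any other line. CDH3, the cell adhesion protein P-cadherin, stood at 24 and 26.2 CPM in KALS-1 and 2.51 and 4.94 CPM in LN-18, with 1.74 CPM or less elsewhere. ST8SIA5-DT, with r 0.96, stood at 21.1 and 14.1 CPM in LN-229, with 7.41 and 7.05 CPM in KNS-42 and only 2.39 and 1.4 CPM in SNU-1105. ST8SIA5, a sialyltransferase that makes gangliosides, stood at 418 and 248 CPM, 321 and 306 CPM and 31.6 and 13.2 CPM in these lines. The libraries of ST8SIA5 overlapped between LN-229 and KNS-42, while those of ST8SIA5-DT did not.

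**Figure D3:**
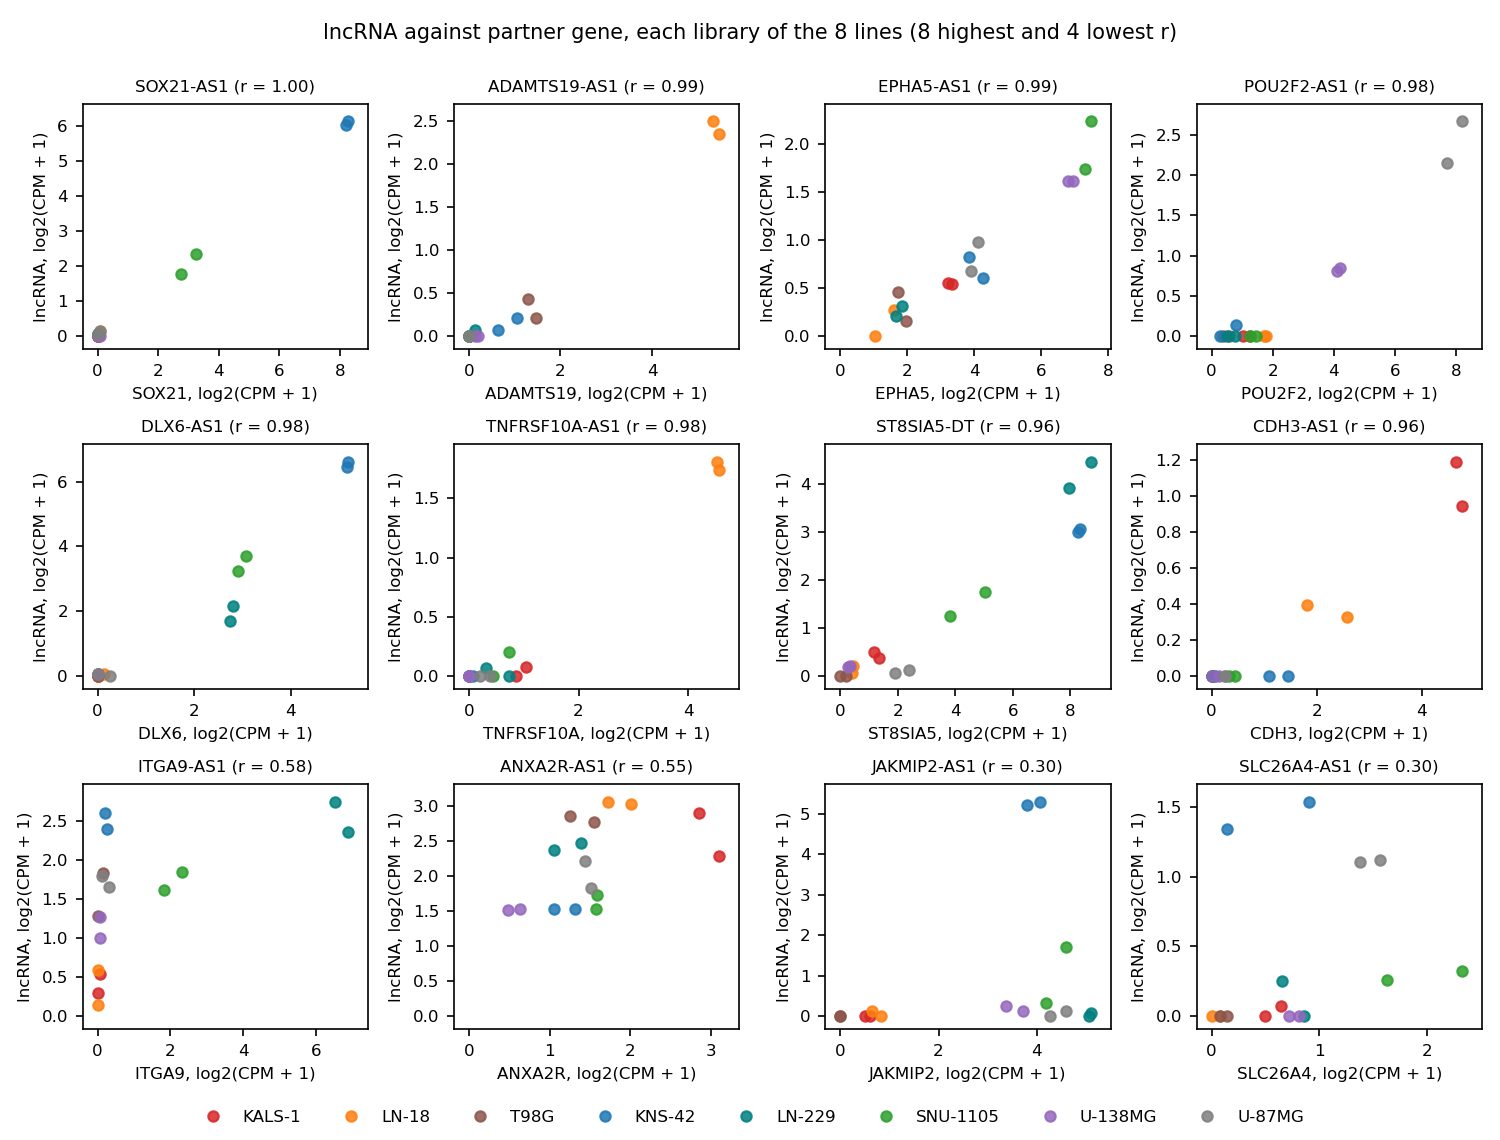
Each lncRNA against its partner in the 16 libraries of the 8-line table, both as log2(CPM + 1), with 1 colour per line, for the 8 pairs of highest and the 4 pairs of lowest Pearson r over line means. In the panels of highest r a few lines lie away from the origin along both axes, whereas KNS-42 lies high for JAKMIP2-AS1 alone.

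Of the 6 pairs with the lowest r, JAKMIP2-AS1, SLC26A4-AS1 and ANXA2R-AS1 had a partner led by another line, whereas ITGA9-AS1, BAALC-AS1 and VIM-AS1 shared the highest line with the partner. JAKMIP2-AS1 stood at 38.3 and 36.1 CPM in KNS-42, with 0.254 and 2.25 CPM in SNU-1105 and at most 0.2 CPM in the other lines. JAKMIP2, a coiled-coil protein, stood at 15.7 and 12.9 CPM in KNS-42, but also at 32.4 and 33.2 CPM in LN-229, with 23 and 18.2 CPM in U-87MG and 12.2 and 9.43 CPM in U-138MG. The r of this pair was 0.30, and -0.31 with the sides subtracted. SLC26A4-AS1 was highest in KNS-42 (1.9 and 1.53 CPM) and SLC26A4, an anion exchanger, in SNU-1105 (4.01 and 2.1 CPM), with r 0.30. For the SLC26A4 pair r was 0.92 without the 2 farthest lines and -0.10 with the sides subtracted.

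ITGA9-AS1 stood between 0.998 and 5.74 CPM in 6 of the 8 lines. ITGA9, an integrin subunit, stood at 117 and 90.9 CPM in LN-229, 2.54 and 4 CPM in SNU-1105 and at most 0.249 CPM elsewhere, and r was 0.58. Spearman's rho, the correlation of the ranks of the lines, was 0.98 for this pair. ANXA2R-AS1 (r 0.55) ranged only from 1.86 to 7.33 CPM over all libraries, and ANXA2R from 0.403 to 7.59 CPM. VIM-AS1 had an r of 0.71 with VIM, the intermediate filament protein vimentin, and was highest in U-87MG at 6.83 and 8.43 CPM against 1.2 to 4.33 CPM elsewhere. VIM in U-87MG, at 5406 and 4485 CPM, overlapped KNS-42 at 4763 and 5031 CPM.

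When both genes of a pair were called in the same line, they were called in the same direction in 88 cases and in opposite directions in 1 (98.9% the same, against 55.9% over all combinations of members with listed genes). By limma the counts were 120 and 4. The opposite case was BAALC-AS1 in LN-229. BAALC-AS1 stood at 8.23 and 6.3 CPM there, beside 9.35 and 13.1 CPM in SNU-1105 and 0.51 to 1.48 CPM in KALS-1, LN-18 and T98G. BAALC, a gene expressed in brain and in acute leukaemia, stood at 1.09 and 0.355 CPM in LN-229 but at 88.5 and 106 CPM in SNU-1105. In LN-229 the lncRNA was higher by 1.35 ± 0.22 and the partner lower by a log2 fold change of -3.93 ± 0.37 (edgeR adjusted p 3.61e-05 and 2.9e-08). In SNU-1105 and U-87MG both were higher. Their exons do not overlap, and their annotated starts lie 158062 bases apart.

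Among A-172, AM-38 and SNU-466, 81 of 215 tested members were higher in A-172 (31% of all genes tested), 87 in AM-38 (35.8%) and 72 in SNU-466 (38.7%). Lower members numbered 25 in A-172 (17%), 42 in AM-38 (25.5%) and 132 in SNU-466 (55.2%). As above, edgeR misses lower calls where another line has 0 reads, and by limma 48 were lower in A-172 (25.8%), 52 in AM-38 (31%) and 133 in SNU-466 (55.7%). The summed counts were 240 higher (35.2% of all tests) and 199 lower (32.6%). Of the 242 members, 97 (40.1%) had their highest mean in SNU-466, beside 45.8% of all listed genes.

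Here, too, most pairs moved together. Of 125 pairs, 100 had an lncRNA that reached 1 CPM, with 96 different partners, and 72% of these had the same highest line, against 33.6% of all combinations with listed genes. The order of all 3 lines was the same in 60, and the share of all combinations with the same order was not counted. Pairs called in the same line went the same way in 174 cases and opposite ways in 20 (89.7% the same, against 53.5% of all combinations). With 3 lines no correlation is given. Of 57 pairs whose exons overlap 78.9% shared the highest line, and of 42 whose exons do not 61.9%; this difference was not tested.

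**Figure D4:**
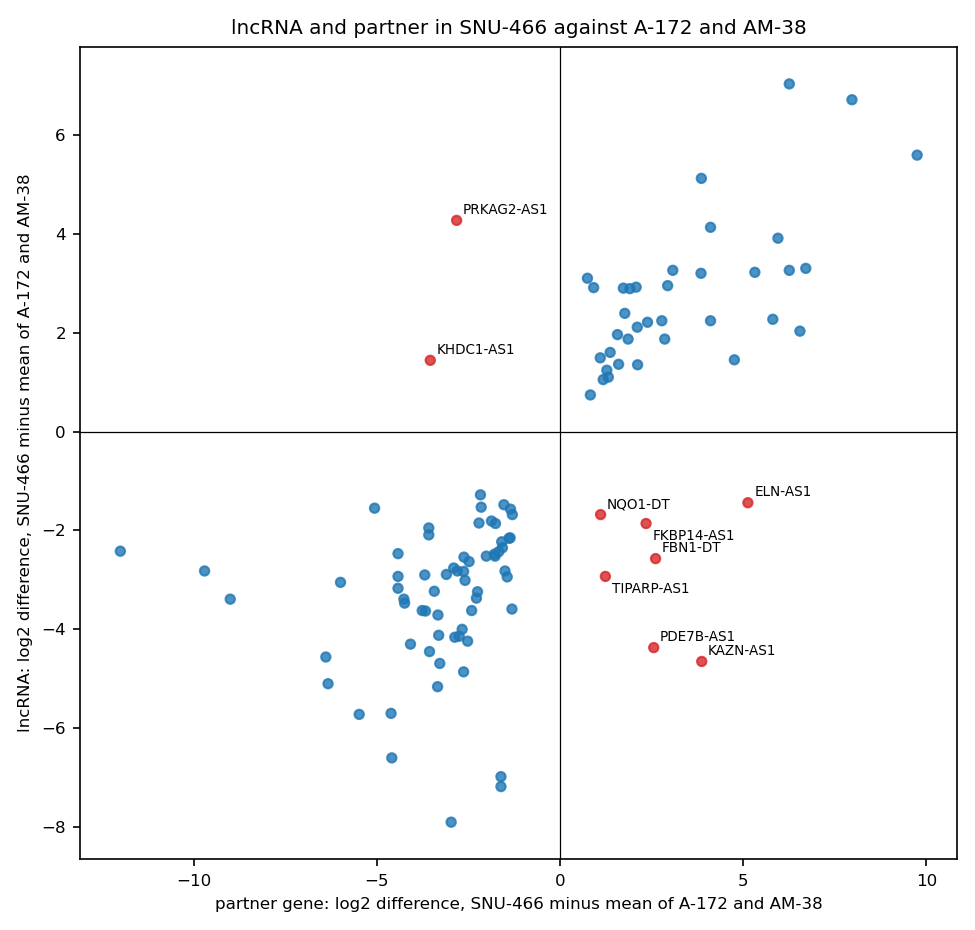
Log2 difference of SNU-466 from the mean of A-172 and AM-38 (limma, prior count 2) for partner genes (horizontal) and lncRNAs (vertical) in the 109 pairs of the 3-line table in which both were tested. 100 pairs have the same sign, and the 9 red, named pairs were called in opposite directions in SNU-466.

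The most abundant lncRNA with a listed partner was PAX8-AS1, at 79.1 and 84.7 CPM in AM-38, 3.84 and 4.71 CPM in A-172 and 0.708 and 1.27 CPM in SNU-466. PAX8, a transcription factor of thyroid and kidney, stood at 26.7 and 23.5, 2.97 and 2.93, and 0.943 and 1.27 CPM, in the same order. AM-38 exceeded the other lines by 5.29 ± 0.10 for PAX8-AS1 and 3.78 ± 0.13 for PAX8 on the log2 scale (edgeR adjusted p 1.21e-62 and 3.84e-43). TRHDE-AS1 stood at 47.3 and 46.2 CPM in AM-38 with 1 read in all other libraries, and TRHDE, a peptidase that degrades thyrotropin-releasing hormone, at 168 and 175 CPM with at most 0.496 CPM elsewhere.

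A-172 led both antisense RNAs of BCAN. BCAN-AS1 stood at 76.7 and 78.8 CPM in A-172, with 11 and 11.9 CPM in AM-38 and 0.177 and 0.0509 CPM in SNU-466. Its neighbour BCAN-AS2 stood at 29.8 and 27.7, 9.05 and 8.88, and 0.059 and 0 CPM. BCAN, the brain proteoglycan brevican, kept this order but over a smaller range, at 18.2 and 15.7, 4.67 and 5.17, and 2.59 and 3.31 CPM. In SNU-466 the log2 fold change was -8.01 ± 0.23 for BCAN-AS1 and -1.62 ± 0.16 for BCAN (edgeR adjusted p 8.3e-49 and 2.48e-15). BCAN-AS1 was the higher of the pair in CPM in A-172 and AM-38, and BCAN in SNU-466.

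Other pairs of the 12 most abundant lncRNAs shared a low level in SNU-466. APCDD1L-DT stood at 17 and 17.5 CPM in A-172, with 7.87 and 7.73 CPM in AM-38 and 0.059 and 0.204 CPM in SNU-466, while APCDD1L was at 0 and 0.0509 CPM in SNU-466 and 4.71 to 6.07 CPM in the other libraries. CCDC144NL-AS1 stood at 36.6 and 41.4, 14.4 and 13, and 0.177 and 0.102 CPM, and CCDC144NL at 1.64 and 1.24, 4.24 and 3.51, and 0 CPM. SLC7A11-AS1 was led by AM-38 (33.3 and 33.7 CPM) and SLC7A11 by A-172 (260 and 321 CPM against 151 and 169 CPM in AM-38), and both fell in SNU-466, to 0 and 0.0509 CPM and 8.49 and 8.91 CPM. FBXL19-AS1 and FBXL19, an F-box protein that binds CpG islands, changed in parallel, from 19.5 and 18.5 CPM and 58.9 and 56.6 CPM in A-172 to 4.72 and 4.89 CPM and 17.6 and 18 CPM in SNU-466. NOP14-AS1 was highest in A-172 (42.1 and 40.2 CPM) but NOP14, needed to make the small ribosomal subunit, in AM-38 (176 and 180 CPM). Of these 5 lncRNAs and their partners, all were called lower in SNU-466 by edgeR.

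Opposite calls came from 12 pairs. They form 3 patterns, described by the line in which the calls of lncRNA and partner parted. In the first, the lncRNA was lowest and the partner highest in SNU-466. KAZN-AS1 stood at 33.9 and 33.1 CPM in AM-38, 0.154 and 0.0496 CPM in A-172 and 0 reads in SNU-466, while KAZN, a protein of cell junctions, stood at 97.1 and 89 CPM in SNU-466, 9.15 and 8.94 CPM in AM-38 and 4.2 and 4.51 CPM in A-172. ELN-AS1 stood at 4.05 and 4.12 CPM in A-172, with 1.84 and 1.91 CPM in AM-38 and 1.12 and 0.815 CPM in SNU-466, while elastin, ELN, stood at 33.1 and 33.5 CPM in SNU-466 and at most 1.14 CPM in the others. FBN1-DT stood at 2.77 and 2.38 CPM in A-172, with 0.424 and 0.502 CPM in AM-38 and 0.177 and 0.0509 CPM in SNU-466, while FBN1, the microfibril protein fibrillin, stood at 668 and 654, 72.4 and 79.2, and 1411 and 1328 CPM.

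Within that pattern the change in SNU-466 was -1.52 ± 0.28 for ELN-AS1 against 5.29 ± 0.14 for ELN, and -3.25 ± 0.59 for FBN1-DT against 2.61 ± 0.04 for FBN1 (log2 fold change; edgeR adjusted p 6.02e-07, 3.57e-52, 5.97e-07 and 4.3e-74). FKBP14-AS1, TIPARP-AS1, PDE7B-AS1 and NQO1-DT had the same pattern of levels, but with TMM or RLE scaling TIPARP and NQO1 were no longer called higher in SNU-466. FKBP14, a folding enzyme of collagen, stood at 184 and 175 CPM in SNU-466 with FKBP14-AS1 at 0.177 and 0.306 CPM. NQO1, a quinone reductase, stood at 279 and 298 CPM with NQO1-DT at 0.236 and 0.153 CPM, a lncRNA whose highest line mean, 0.969 CPM in AM-38, lies just under 1 CPM and which is named after its values were seen. COL1A2, a collagen gene of fibroblasts, moved with these matrix genes, at 10209 CPM in SNU-466 but 0.727 CPM in AM-38, with A-172 at 122 CPM; its part was not tested.

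In the second pattern the lncRNA was highest and the partner lowest in SNU-466. KHDC1-AS1 stood at 8.67 and 9.88 CPM in SNU-466 against 4.2 and 4.71 CPM in A-172 and against 2.55 and 2.51 CPM in AM-38, while KHDC1 stood at 0.354 and 0.255 CPM against 4.36 to 4.92 CPM. PRKAG2-AS1 stood at 3.71 and 4.18 CPM in SNU-466, 0.359 and 0.298 CPM in A-172 and 0 reads in AM-38. PRKAG2, a regulatory subunit of AMP-activated kinase, stood at 20.9 and 21.4, 99.4 and 97.7, and 224 and 233 CPM, the reverse order. In SNU-466 the log2 fold change was 1.47 ± 0.15 for KHDC1-AS1 and -3.91 ± 0.33 for KHDC1 (edgeR adjusted p 4.43e-15 and 2.77e-19).

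In the third, the calls parted in A-172 or AM-38 but not in SNU-466. Only DLGAP1-AS2 had its highest level in another line than its partner there. DLGAP1-AS2 stood at 22.3 and 24 CPM in A-172, with 3.21 and 3.41 CPM in AM-38 and 2.12 and 2.29 CPM in SNU-466. DLGAP1, a scaffold protein of synapses, stood at 7.35 and 7.63 CPM in AM-38, 0.0512 and 0.149 CPM in A-172 and 0 reads in SNU-466. LOXL1-AS1 stood at 59 and 60.3 CPM in A-172, with 18.5 and 21.4 CPM in AM-38 and 0 and 0.102 CPM in SNU-466, and LOXL1, an enzyme that crosslinks elastin, at 167 and 158, 14.5 and 14, and 6.49 and 5.65 CPM. Both genes of the LOXL1 pair kept the same order of lines, but in AM-38 LOXL1-AS1 lay 3.38 ± 0.22 over and LOXL1 at -1.14 ± 0.09 from the log2 mean of the other lines. With TMM or RLE scaling LOXL1, DLGAP1-AS2 and KAZN were no longer called lower in AM-38, nor, with RLE, KHDC1-AS1. Opposite cases then numbered 15 with TMM and 14 with RLE, against 20. HECW2-AS1 and HECW2, a ubiquitin ligase, kept the same order of lines, like the LOXL1 pair. Both were highest in AM-38, at 3.49 and 4.42 CPM and 49.1 and 51 CPM, and lowest in SNU-466. They parted in call in A-172.

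**Figure D5:**
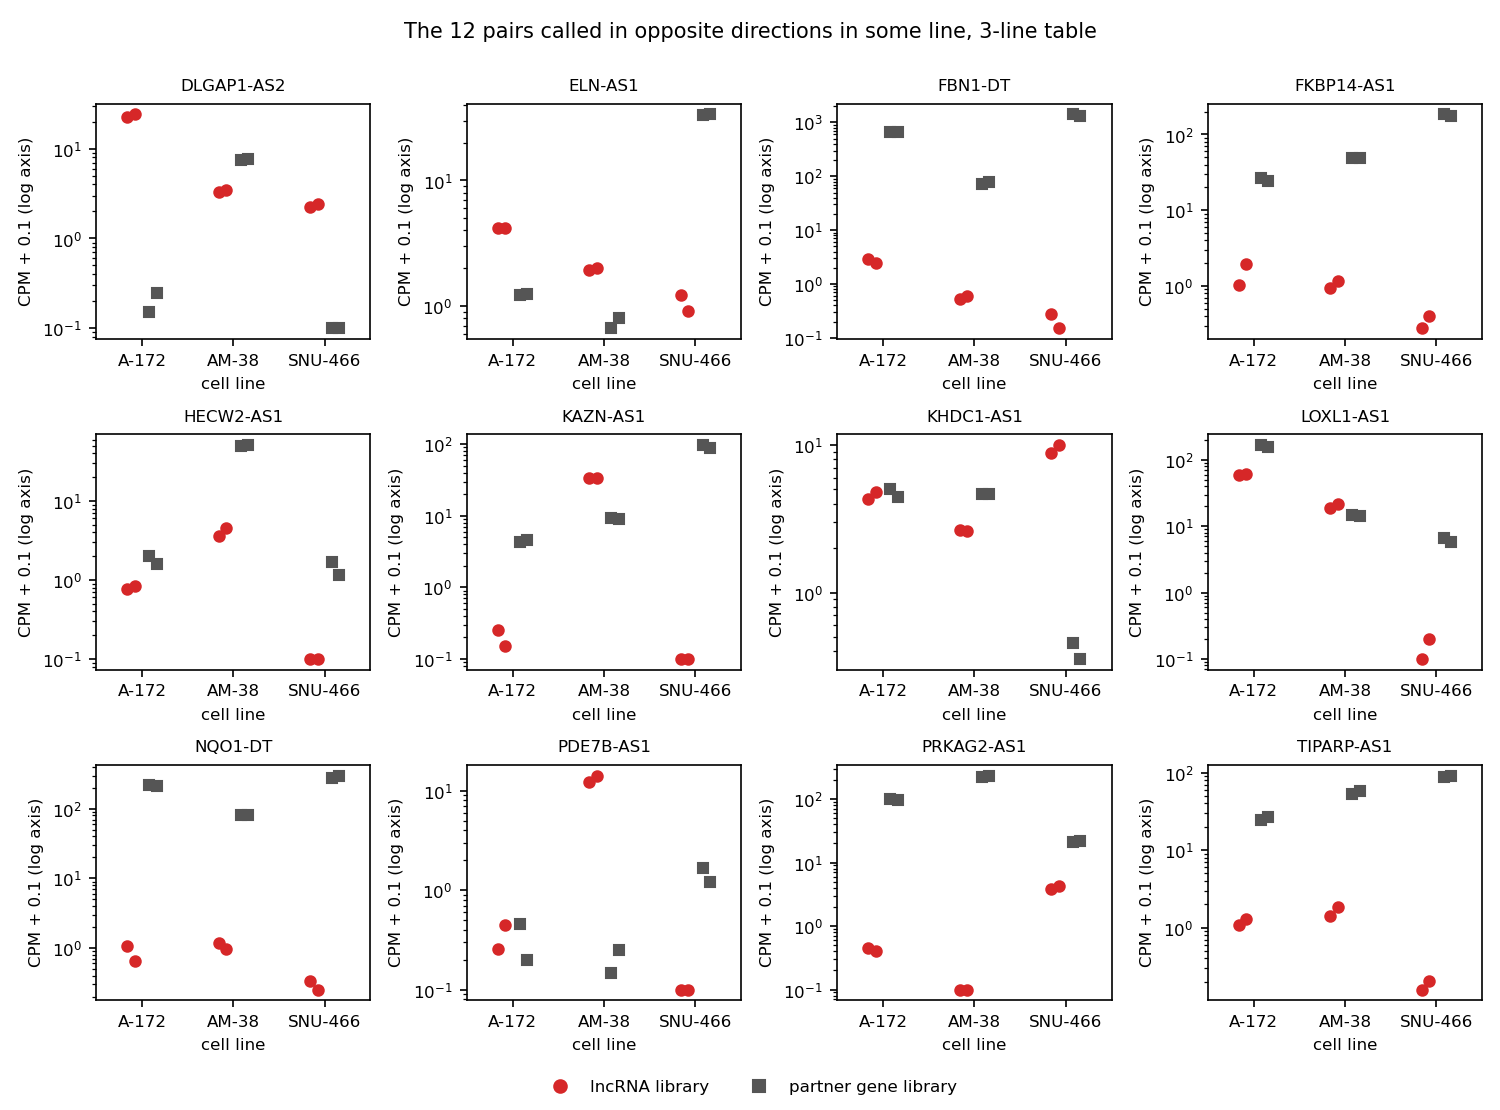
Levels of lncRNA (red circles) and partner gene (grey squares) in both libraries of A-172, AM-38 and SNU-466, as CPM + 0.1 on a log axis, for the 12 pairs called in opposite directions in some line. In SNU-466 the partner is at its highest and the lncRNA at its lowest for ELN-AS1, FBN1-DT, FKBP14-AS1, KAZN-AS1, NQO1-DT, PDE7B-AS1 and TIPARP-AS1, and the reverse holds for KHDC1-AS1 and PRKAG2-AS1.

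Members without a listed partner reached similar levels. In the 3-line table MAGI2-AS3 was the most abundant of them, at 113 and 104 CPM in SNU-466, 21.3 and 22.3 CPM in AM-38 and 2.56 and 2.58 CPM in A-172. ADGRD1-AS1 stood at 58.6 and 59.7 CPM in AM-38 and had 0 reads in A-172 and SNU-466, at least 1504-fold higher against 3 reads over those 4 libraries. IGFL2-AS1 stood at 46.9 and 47.1 CPM in A-172 and at most 0.502 CPM elsewhere, and TP73-AS1 at 35 and 34.2 CPM in SNU-466, with at most 0.754 CPM elsewhere. SLCO4A1-AS1 (33 and 31.8 CPM) and STARD4-AS1 (28.9 and 27.9 CPM) were also led by SNU-466, GASK1B-AS1 (18.3 and 21.6 CPM) by A-172 and SVIL-AS1 (46.5 and 45.3 CPM) by AM-38.

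Other abundant members were measured well above the floor in every library. PSMA3-AS1 stood at 18.6 and 22.3 CPM in A-172, with 28.2 and 26.6 CPM in AM-38 and 39.5 and 41.7 CPM in SNU-466, and was not called higher or lower in any of the 3 lines, its log2 differences staying under 1. GARS1-DT stood at 45.5 and 48.8, 18.8 and 20, and 57.9 and 54.9 CPM, and KRT10-AS1 at 17.6 and 15.6, 19.3 and 17.7, and 6.84 and 6.72 CPM, with log2 ranges of the line means of 1.54 and 1.43. In the 8-line table PCBP1-AS1 ranged from 5.25 CPM in KALS-1 to 42.1 CPM in KNS-42, FAM131B-AS2 from 4.82 CPM in T98G to 22.8 CPM in SNU-1105 and CKMT2-AS1 from 2.39 CPM in U-138MG to 16.8 CPM in T98G. NUP50-DT, FBXL19-AS1 and SGMS1-AS1 were likewise present in every library, at 1.42 CPM or more.

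Members beside genes of developmental transcription factor families numbered 9 in the 8-line table and 15 in the 3-line table, and 7 and 14 of them reached 1 CPM. In KNS-42 5 of 9 were called higher and 1 lower, in SNU-1105 4 and 0, in U-138MG 4 and 2, in U-87MG 4 and 3, in LN-229 3 and 1, in KALS-1 2 and 1, in T98G 2 and 0 and in LN-18 1 and 1. Of all genes, 33% were called higher and 13.7% lower in KNS-42, 25.8% and 8.78% in SNU-1105, and 33.5% and 16% in U-138MG. These shares were 33.1% and 16.2% in U-87MG, 27.9% and 12% in LN-229, and 24.1% and 19.5% in KALS-1. T98G had 20.7% and 30.1%, and LN-18 31% and 24.9%. Lower calls by limma numbered 7 of 9 in LN-18 (38.7% of all genes tested), 6 in T98G (47.6%), 5 each in U-138MG (29.9%) and U-87MG (30.2%), 4 in KALS-1 (36.3%), 3 each in KNS-42 (26.1%) and LN-229 (26.4%) and 1 in SNU-1105 (20.8%). Of the 15, 8 were higher and 5 lower in AM-38, 6 and 9 in SNU-466 and 4 and 3 in A-172, where limma called 6 lower. By edgeR, 35.8% of all genes were called higher and 25.5% lower in AM-38, 38.7% and 55.2% in SNU-466, and 31% and 17% in A-172. By limma 25.8% of all genes were lower in A-172. ZEB1-AS1 and ZEB1, a repressor known from epithelial-mesenchymal transition, stood at 7.58 and 7.24 CPM and 39.9 and 43.6 CPM in A-172, 6.51 and 6.48 CPM and 34.1 and 35.1 CPM in AM-38, and 0.059 and 0.356 CPM and 3.95 and 3.72 CPM in SNU-466. ZEB2-AS1 and ZEB2, its paralogue, went the other way, at 1.71 and 2.44 CPM and 538 and 529 CPM in SNU-466 against at most 0.256 CPM and 63.8 CPM in A-172 and AM-38. In SNU-466 the log2 fold change was -4.95 ± 0.32 for ZEB1-AS1 and 3.78 ± 0.43 for ZEB2-AS1 (edgeR adjusted p 1.88e-25 and 2.62e-13).

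Of the other pairs of this kind, SOX9-AS1 kept the order of lines of its partner and NR2F2-AS1 did not. SOX9 stood at 189 and 185 CPM in A-172, with 262 and 266 CPM in AM-38 and 0.177 and 0.153 CPM in SNU-466, and SOX9-AS1 at 1.28 and 0.843, 2.31 and 1.81, and 0.059 and 0.204 CPM. NR2F2-AS1 was led by AM-38 (15.6 and 16.1 CPM against 2.46 and 3.62 CPM in A-172), whereas NR2F2, a nuclear receptor of vessel and limb development, was led by A-172 (96.3 and 103 CPM against 40.4 and 45.5 CPM in AM-38). Both were lowest in SNU-466. POU2F2-AS1 and POU2F2-AS2 were led by AM-38, at 2.83 and 2.36 CPM and 6.36 and 5.22 CPM, as was POU2F2 at 105 and 97.7 CPM.

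HOX clusters carry several antisense RNAs, which are named after a cluster and so have no partner row. In the 3-line table HOXB-AS3 stood at 34.6 and 33.1 CPM in A-172, with 1.27 and 1.46 CPM in AM-38 and 0.118 and 0.153 CPM in SNU-466. HOXB-AS1 stood at 3.33 and 3.17, 1.32 and 1.46, and 0.118 and 0.102 CPM, and HOXB-AS2 at 3.94 and 3.32, 1.23 and 1.1, and 0.059 and 0.0509 CPM. All 3 were higher in A-172 and lower in SNU-466 by edgeR. All 7 listed HOXB genes were lowest in SNU-466, and HOXB2, HOXB3, HOXB4, HOXB5, HOXB7 and HOXB8 were highest in A-172. Means in A-172, AM-38 and SNU-466 were 81.3, 12.2 and 0.0255 CPM for HOXB2 and 127, 84.5 and 3.83 CPM for HOXB3. HOXB6 was highest in AM-38, at 104 CPM, with A-172 at 90.1 CPM and SNU-466 at 7.19 CPM. HOXC-AS2 was led by SNU-466 (1.24 and 1.94 CPM), as were HOXC4 (19.4 CPM), HOXC6 (16.1 CPM) and HOXC8 (2.57 CPM). HOXC11 and HOXC13 were led by A-172 (4.01 and 20 CPM) and HOXC12 by AM-38 (1.51 CPM), and all 3 were lowest in SNU-466. In the 8-line table HOXB-AS1 was called higher in KNS-42 (3.04 and 3.32 CPM), U-87MG (2 and 2.35 CPM) and SNU-1105 (1.58 and 2.45 CPM), the lines in which HOXB2 stood at 41.6, 22.9 and 40.3 CPM, against at most 1.05 CPM in the other 5.

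A list of 29 antisense RNAs was drawn up as studied in glioma, with no source given here for its entries. Of these, the 8-line table lists 4 (HOXB-AS1, SOX21-AS1, DLX6-AS1 and PRKAG2-AS1) and the 3-line table lists 9. Of the 4, edgeR called 3 higher in KNS-42 (33% of all genes tested) and 3 in SNU-1105 (25.8%). It called 1 higher in each of LN-18 (31%), LN-229 (27.9%), T98G (20.7%) and U-87MG (33.1%), and 0 in KALS-1 (24.1%) and U-138MG (33.5%). By limma 4 of 4 were lower in U-138MG (29.9%), 3 each in LN-18 (38.7%), T98G (47.6%) and U-87MG (30.2%), 2 in KALS-1 (36.3%) and 1 each in LN-229 (26.4%) and SNU-1105 (20.8%). Of the 8 tested in the 3-line table, 4 were higher and 4 lower in SNU-466 (38.7% and 55.2% of all genes tested). These counts were 4 and 3 in AM-38 (35.8% and 25.5%) and 2 and 2 in A-172 (31% and 17%). HOXA-AS3 stood at 0.885 and 0.662 CPM in SNU-466, 0.154 and 0.149 CPM in A-172 and 0 reads in AM-38, and BBOX1-AS1 stayed at or below 0.662 CPM in every library.

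The 29 members listed in both tables can be followed over 11 lines as CPM, although the tables were fitted apart. DLX6-AS1 stood at 91.9 CPM in KNS-42, 14.7 CPM in SNU-466 and 10.2 CPM in SNU-1105, with a median of 0.0265 CPM over the lines. In SNU-466 DLX6 was measured beside it at 7.43 and 8 CPM, with 0 reads in A-172 and AM-38. ITGB1-DT stood at 19.7 CPM in U-87MG and 12.1 CPM in AM-38, with 1.61 CPM in U-138MG as the next. PDE7B-AS1 had the same leading lines in the other order, at 13.1 CPM in AM-38 and 6.95 CPM in U-87MG, and POU2F2-AS1 stood at 4.38 CPM in U-87MG and 2.59 CPM in AM-38.

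SLC7A11-AS1 stood at 33.5 CPM in AM-38 and 4.87 CPM in T98G, GAS6-AS1 at 13 CPM in AM-38, 10.3 CPM in A-172 and 7.66 CPM in U-138MG, and ST8SIA5-DT at 17.6 CPM in LN-229, followed by KNS-42 (7.23 CPM) and SNU-466 (6.31 CPM). PROX1-AS1 was led by LN-229 (7.68 CPM) and SNU-466 (5.03 CPM), TFAP2A-AS1 by KALS-1 (7.89 CPM) and SNU-466 (7.31 CPM) and PCDH10-DT by U-138MG (3.09 CPM) and A-172 (2.42 CPM). SLC20A1-DT ranged from 1.07 CPM in T98G to 11.5 CPM in AM-38, NUP50-DT from 3.66 CPM in AM-38 to 20.4 CPM in U-138MG, and FBXL19-AS1 between LN-18 (2.32 CPM) and A-172 (19 CPM). PRKAG2-AS1 stood at 5.54 CPM in T98G, 3.95 CPM in SNU-466 and 3.04 CPM in LN-18.

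The rest of the 29 reached lower levels or were led by LN-18 and U-87MG. LN-18 led PITX1-AS1 (9.25 CPM), MRPL20-DT (6.87 CPM), CEACAM16-AS1 (6.1 CPM), IRF2-DT (5.17 CPM) and BTF3-DT (1.18 CPM, with A-172 at 1.16 CPM). U-87MG led PPP1R14B-AS1 (8.1 CPM) and SPRY4-AS1 (3.28 CPM), and U-138MG led DNAAF3-AS1 (3.43 CPM). FLG-AS1 was highest in AM-38 (4.96 CPM), KLRK1-AS1 and PSG11-AS1 in KALS-1 (2.84 and 2.01 CPM) and THBS4-AS1 in KNS-42 (1.92 CPM).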

How the data were processed

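Poly(A) RNA of 11 lines was measured in 2 libraries each. The deposited tables give the authors' raw read counts and FPKM per gene. The submitters' processing notes name hg38 and, among tools, HISAT2 2.2.1, StringTie 1.3.3, HTSeq 0.6.0, cutadapt 1.9.1 and FastQC 0.10.1. Whether counting used strand and which annotation release was used are not given in the sources used here. Gene symbols came from a table of Ensembl IDs, and coordinates from GENCODE 29 (GRCh38).

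Library totals were worked back from reads, gene length and FPKM, since the tables list only part of the genes, and served as library sizes without further factors. Counts were tested with edgeR 4.0.16 (quasi-likelihood test, R 4.3.3, Benjamini-Hochberg adjustment over all genes tested, filterByExpr with a minimum count of 10 and total of 15), each table by itself. limma 3.58.1 (prior count 2), DESeq2 1.42.0, TMM and RLE factors, no filter, a replicate block and leaving out each library were alternatives. The edgeR step was tested on simulated data. Correlations used line means of log2(CPM + 1). Tables were handled with Python 3.11.15, pandas 2.3.3 and numpy 2.4.6.

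The members and lists were chosen with earlier results of these data known. Pairs were named where the lncRNA reached 1 CPM: the 8 of highest and 6 of lowest r, the 12 most abundant of the 3-line table and those called in opposite directions. Also named were the 12 most abundant members without a listed partner per table and up to 3 members per line. The latter were called higher in the line by edgeR, with both libraries above every other library. Members in both tables, and members of the transcription factor, HOX and glioma lists, were named as well. 1 member and its partner are counted but not reported here by name or drawn.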

Additional observations from a re-analysis of the deposited data

How the results depend on the processing

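For the 8-line table, lower calls numbered 111 by edgeR and 247 by limma, and the cause was not tested beyond the lines with 0 reads named above. Cases of lncRNA and partner called in opposite directions numbered 1, and 2 with TMM factors, 2 with RLE size factors, 4 with limma, 2 without line T98G (chosen after seeing the data) and 1 to 2 when each library was left out, being 2 without KNS-42 replicate 1 and without U-138MG replicate 2; the cause was not tested. Pairs with a negative r numbered 0, and 1 without the 2 lines farthest from the median and 4 with side means subtracted (chosen after seeing the data). Other counts stayed within 1.5 times their value under the alternatives run. Members higher in a line numbered 189 to 227 in the 8-line and 222 to 270 in the 3-line table. Pairs called in the same direction numbered 85 to 120 and up to 195. Pairs with an r of at least 0.5 numbered 31, and 22 to 35 under the alternatives, with 22 without the 2 lines farthest from the median. TMM moved the median of all genes by -0.41 (KNS-42) to 0.69 (T98G) on the log2 scale. No member call turned to the opposite direction under TMM or RLE.

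With the replicate block, higher calls of members numbered 219 against 216 and 238 against 240 without it, and opposite cases 1 and 20, as without it. Libraries with the same number deviated together by a correlation of only -0.07 to 0.07 between lines, so the numbers do not pair the samples. Depth limits the members at a few reads, where a line at 0 reads may hold up to 0.177 CPM.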
